A study of Mus musculus with 9 samples.

Results

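The genes described here encode the enzymes and proteins of fatty acid oxidation, acyl-CoA handling and peroxisome assembly in mouse kidney. They were taken by symbol, from names that begin with Acad, Acaa, Acot, Acox, Acs (followed by b, f, l, m or s), Cpt1, Cpt2, Hadh, Ehhadh, Echd, Echs, Eci, Decr, Etf, Pex or Fabp, without Fabp4 and Fabp6, and 86 of the 22180 genes tested carry such a name. Each gene is represented by its brightest array row that carries a single symbol. Acot8, Acsl3, Acsm3, Cpt1b and Echdc1 appear only on rows shared by several symbols and were not analysed here. Of the 86 genes, 4 were set apart as matches by spelling alone. Etf1 encodes a factor that ends translation, and Acss2os is a transcript opposite Acss2. Etfbkmt and Etfrf1 encode a methyltransferase and a regulator of the electron transfer flavoprotein. The other genes were grouped by symbol, Pex5l with the other Pex genes.

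Total RNA of kidney was measured on 9 whole-transcript arrays, 3 per group. The sham group had a sham operation 3 weeks before the kidneys were taken. In the CBDL group the kidneys were taken 3 weeks after ligation of the common bile duct, the duct that drains the liver into the gut. Prefeeding with norursodeoxycholic acid (norUDCA), a derivative of ursodeoxycholic acid that lacks a carbon of the side chain, for 5 days and then the same 3 weeks of ligation made up the norUDCA-fed CBDL group. The sources used here give no strain, sex or age, nor whether feeding went on after the operation, and no sham group fed norUDCA was among the samples. Arrays carry the number in their label, so that sham holds sham_158, sham_159 and sham_160. CBDL holds CBDL_164, CBDL_165 and CBDL_170. The norUDCA-fed group holds norUDCA_CBDL_172, norUDCA_CBDL_175 and norUDCA_CBDL_179. Where samples of a group came from is not stated, so the p-values reflect no more than how these samples vary, which may be technical.

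Levels are deposited log2 signals, and a difference of 1 between 2 group means is a 2-fold change. A gene is said to have risen or fallen where limma, fitted over all 9 arrays and 22180 genes, gave a Benjamini-Hochberg adjusted p under 0.05 (two-sided). SE is the standard error of a difference, and SD the standard deviation of the 3 values in a group. With 3 arrays a group, 0.1 is the smallest p that exact permutation of 1 gene's values allows. The signal of 1 gene's probes is not set against that of another gene, since probes differ in how brightly they read.

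Cells break fatty acids down after tying them to coenzyme A. Synthetases make the acyl-CoA, thioesterases cleave it again, and the carnitine shuttle carries long chains into mitochondria, where each turn of beta-oxidation runs through an acyl-CoA dehydrogenase, a hydratase, a hydroxyacyl-CoA dehydrogenase and a thiolase, with electrons passed on by the electron transfer flavoprotein. Peroxisomes run a parallel pathway that begins with an acyl-CoA oxidase and takes very long and branched chains and the side chain of bile acid precursors, and peroxins build the organelle and import its enzymes. The proximal tubule of the kidney is rich in both organelles and draws most of its energy from fatty acids.

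For the labelled tissue, none of 18 proximal tubule markers had a mean signal in the dimmest 33.3% of genes (5.2 and below), where no signal can be told from background with these files, and each of the adrenal markers Cyp11a1, Cyp11b1, Cyp21a1 and Hsd3b6 did, while the mean of Star was 5.78. Of 8 liver markers 1 had a mean in that dimmest part, and of 7 muscle markers 4. The liver markers Ttr and Apob had means of 10.47 and 10.46. Since probes differ in brightness, these values describe signals and do not measure amounts. In a principal component analysis of all genes, the first component held 58.3% of the variance and ordered sham, norUDCA-fed CBDL and CBDL. The second held 13% and set off sham_159 (score 34.5) and CBDL_165 (score 22.9), with the scores of the other 7 between -12 and -3.4. Counts without these 2 arrays are given beside the main ones.

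Ligation was followed by lower levels in most of these genes. In CBDL against sham, 51 of the 86 genes fell, 5 rose and 30 did not pass. Called genes were thus 65.1% of the members, against 21.8% of all genes tested, and the genes that fell were 59.3% of the members against 11.5% of all genes. The members that rose were 5.81% against 10.3%. The median difference of the 86 genes was -0.54 and that of all genes -0.06. The 3 CBDL arrays lay wholly below the 3 sham arrays for 58 members (67.4%) and wholly above for 6, against 20% and 15.6% of all genes and 35.6% in either direction. Called falls of at least 2-fold occurred in 17 members and a rise of that size in 1 (Acsl4), against 3.02% and 3.09% of all genes. Without sham_159 and CBDL_165, 39 members fell and 4 rose. Leaving out any single array left between 43 and 52 members lower, and 46 of the 56 calls held in each of these 9 fits.

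In the kidneys of mice fed norUDCA before ligation, the levels lay between those of the other groups for most of these genes. Against CBDL, 28 members rose, 1 fell and 57 did not pass, so that 33.7% were called against 6.8% of all genes, and the median difference was 0.31 against 0. The genes that rose were 32.6% of the members and 3.61% of all genes, and the 1 that fell compares with 3.2% of all genes. At least 2-fold rises were called in 9 members and in 1.08% of all genes. The 3 norUDCA-fed arrays lay wholly above the 3 CBDL arrays for 46 members (53.5%), as they did for 11.6% of all genes. Each of the 28 genes that rose was also among the 51 that fell after ligation. The 2 comparisons share the 3 CBDL arrays, so low values there favour both calls. How many of all genes have both calls was not counted. The counts called against CBDL lean on single arrays, for the members as for all genes (29 and 1509 in the main fit). They dropped to 5 members and 278 genes without norUDCA_CBDL_175, and to 6 and 361 without CBDL_164. The counts were 11 and 504 without norUDCA_CBDL_172, 13 and 571 without norUDCA_CBDL_179, and 15 and 695 without CBDL_165. They stood at 39 and 2043 without CBDL_170, and at 14 and 749 without sham_159 and CBDL_165. Acot3, Fabp7, Acaa1b, Acox2 and Echs1 held their call in all 9 of these fits, and in the other 24 the highest adjusted p over the 9 fits lay between 0.0525 and 0.168.

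Against sham, 8 members were called in the norUDCA-fed kidneys, 9.3% against 3.18% of all genes. Cpt1c, Acsbg1 and Acsl4 were higher (3.49% of the members, 1.82% of all genes), and Acads, Acsf3, Acsm1, Acox3 and Acad8 were lower (5.81% of the members, 1.37% of all genes). A call of at least 2-fold was made for Acsm1, which was lower, and for 0.329% of all genes in that direction. The median difference was -0.20, and the norUDCA-fed arrays lay wholly below the sham arrays for 39 members (45.3%, against 13.5% of all genes). Of the 51 genes that fell after ligation, the norUDCA-fed mean lay between the other 2 means in 48 and above the sham mean in Acss1, Acot3 and Acaa2. Picking genes by a fall after ligation by itself favours such a position, and the same count over all genes was not made. Which 8 genes were called moved with the arrays, and the count over all genes (706 in the main fit) moved too. Without norUDCA_CBDL_172 1 member and 206 genes were called, and without norUDCA_CBDL_179 1 and 156. Leaving out sham_160 gave 2 and 298, sham_159 3 and 420, norUDCA_CBDL_175 4 and 401, and sham_158 5 and 467. In the fit without CBDL_170, 13 members and 786 genes were called, and without sham_159 and CBDL_165 5 and 622. None of the 8 held its call in all 9 of these fits.

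**Figure D1:**
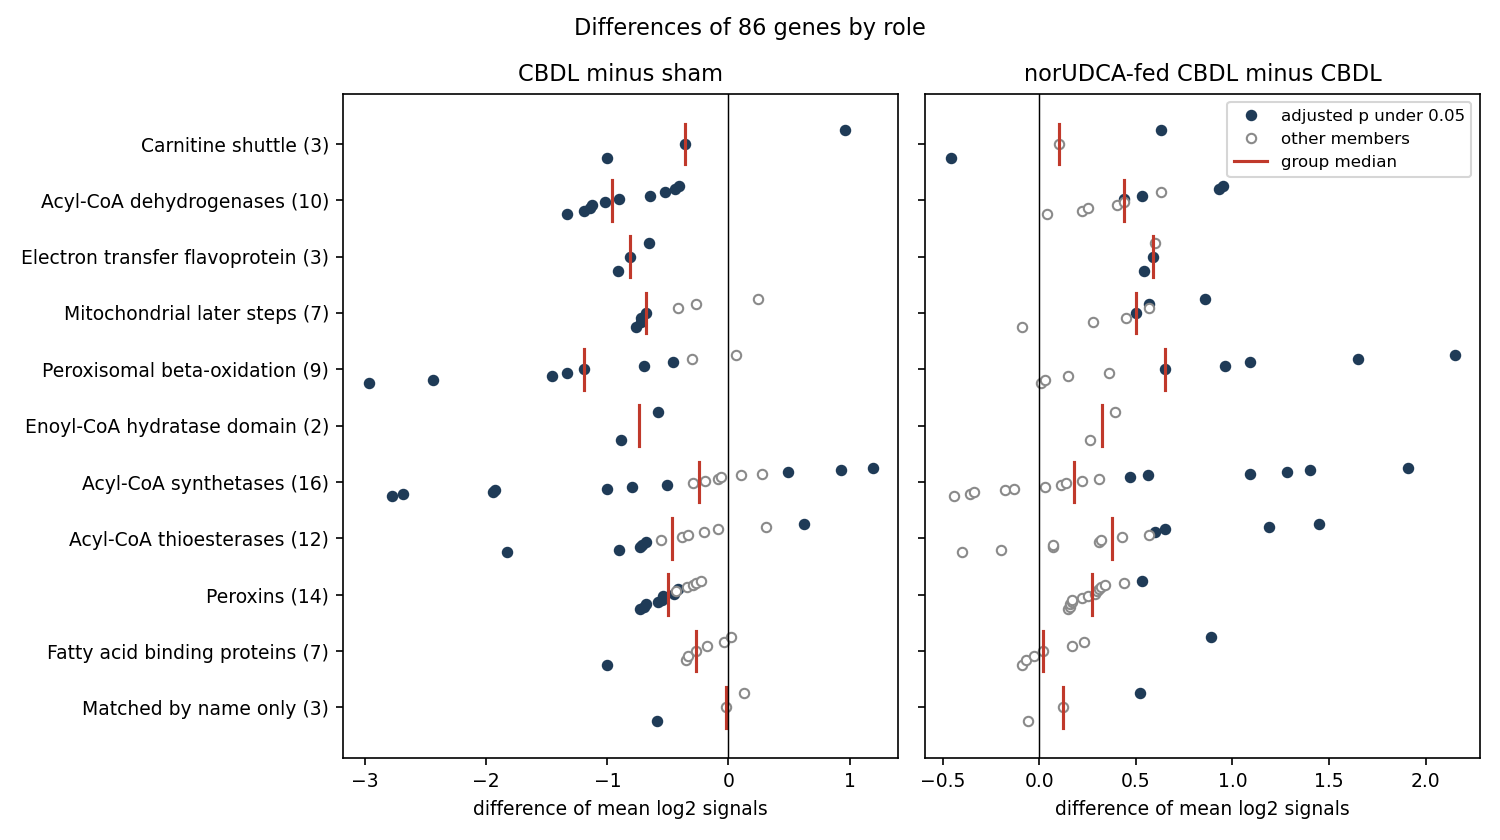
Each point is 1 of the 86 genes, placed at its difference of mean log2 signals (horizontal axis) in the row of its role, with the number of genes in brackets; filled points passed an adjusted p under 0.05 and red bars are group medians. After ligation all 10 acyl-CoA dehydrogenase genes lie below 0, and against CBDL the norUDCA-fed kidneys have all 9 peroxisomal beta-oxidation genes above 0, 5 of them past the threshold.

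Peroxisomal beta-oxidation had the lowest median difference of the roles after ligation. Of its 9 measured genes 7 fell after ligation and 5 of those rose in norUDCA-fed CBDL against CBDL, with group medians of -1.19 and 0.65. Acox2, the branched-chain acyl-CoA oxidase that also acts on bile acid precursors, stood at 10.08, 10.10 and 9.96 on the sham arrays, 7.45, 7.25 and 8.13 on the CBDL arrays and 9.24, 9.30 and 9.24 on the norUDCA-fed arrays. The 3 groups did not overlap, and the norUDCA-fed arrays were close together between the others. The difference was -2.44 after ligation (SE 0.19, adjusted p = 4.55e-05), a 5.41-fold lower level, and 1.65 in norUDCA-fed CBDL against CBDL (SE 0.19, adjusted p = 0.00655), which left it 0.79 below sham (difference -0.79, adjusted p = 0.0602).

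Eci3, an enoyl-CoA isomerase of peroxisomes, had the largest fall of the 86 genes. Its arrays read 10.16, 10.15 and 10.32 in sham, 7.26, 6.35 and 8.12 in CBDL and 9.23, 9.70 and 9.23 in norUDCA-fed CBDL. The CBDL arrays spread over more than 1 log2 unit, with CBDL_165 lowest and CBDL_170 highest, and still lay below every array of both other groups. Eci3 changed by -2.97 after ligation (SE 0.35, adjusted p = 0.00032) and by 2.15 in norUDCA-fed CBDL against CBDL (SE 0.35, adjusted p = 0.011), a call that was lost without norUDCA_CBDL_175 (adjusted p = 0.0565).

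Ehhadh encodes the bifunctional enzyme that hydrates and then oxidises the chain. Its mean was 11.06 ± 0.11 (SD, n = 3) in sham, 9.60 ± 0.40 (SD, n = 3) in CBDL and 10.56 ± 0.20 (SD, n = 3) after norUDCA feeding, with each norUDCA-fed array (10.77, 10.38 and 10.53) above each CBDL array (9.67, 9.17 and 9.95) and below each sham array (11.03, 10.96 and 11.17). The differences were -1.46 (SE 0.19, adjusted p = 0.000474) and 0.96 (SE 0.19, adjusted p = 0.0171).

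The thiolase genes that close the peroxisomal cycle did not move alike. Acaa1b read 9.34, 9.46 and 9.29 in sham, 7.94, 8.25 and 8.34 in CBDL and 9.34, 9.11 and 9.34 in norUDCA-fed CBDL, so the sham and norUDCA-fed arrays overlapped and the CBDL arrays lay below both. Its changes were -1.19 (SE 0.13, adjusted p = 0.000174) and 1.09 (SE 0.13, adjusted p = 0.00655). Acaa1a, its close relative, went from 7.58 ± 0.13 to 7.12 ± 0.14 and 7.14 ± 0.09 (SD, n = 3 each). It changed by -0.46 after ligation (adjusted p = 0.0157, lost without sham_160 or CBDL_164) and differed by 0.03 between norUDCA-fed CBDL and CBDL (SE 0.11, adjusted p = 0.941), which is not a call. Whether probes of these relatives read each other's transcripts was not tested, and the difference between the 2 genes was not tested either.

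Acox3, the oxidase of branched chains such as pristanic acid, stayed below sham. It changed by -1.33 after ligation (SE 0.12, adjusted p = 6.68e-05), by 0.65 in norUDCA-fed CBDL against CBDL (SE 0.12, adjusted p = 0.0138) and by -0.68 against sham (SE 0.12, adjusted p = 0.0142). Decr2, a reductase for unsaturated chains, changed by -0.70 after ligation (SE 0.16, adjusted p = 0.0116) and was not called in norUDCA-fed CBDL against CBDL. Eci2, another isomerase, had a difference of -0.30 after ligation (adjusted p = 0.17). Acoxl lay between 4.80 and 5.39 on all arrays, in the dimmest 33.3% of genes (mean signals of 5.2 and below), where the files do not show that a signal stands above background.

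**Figure D2:**
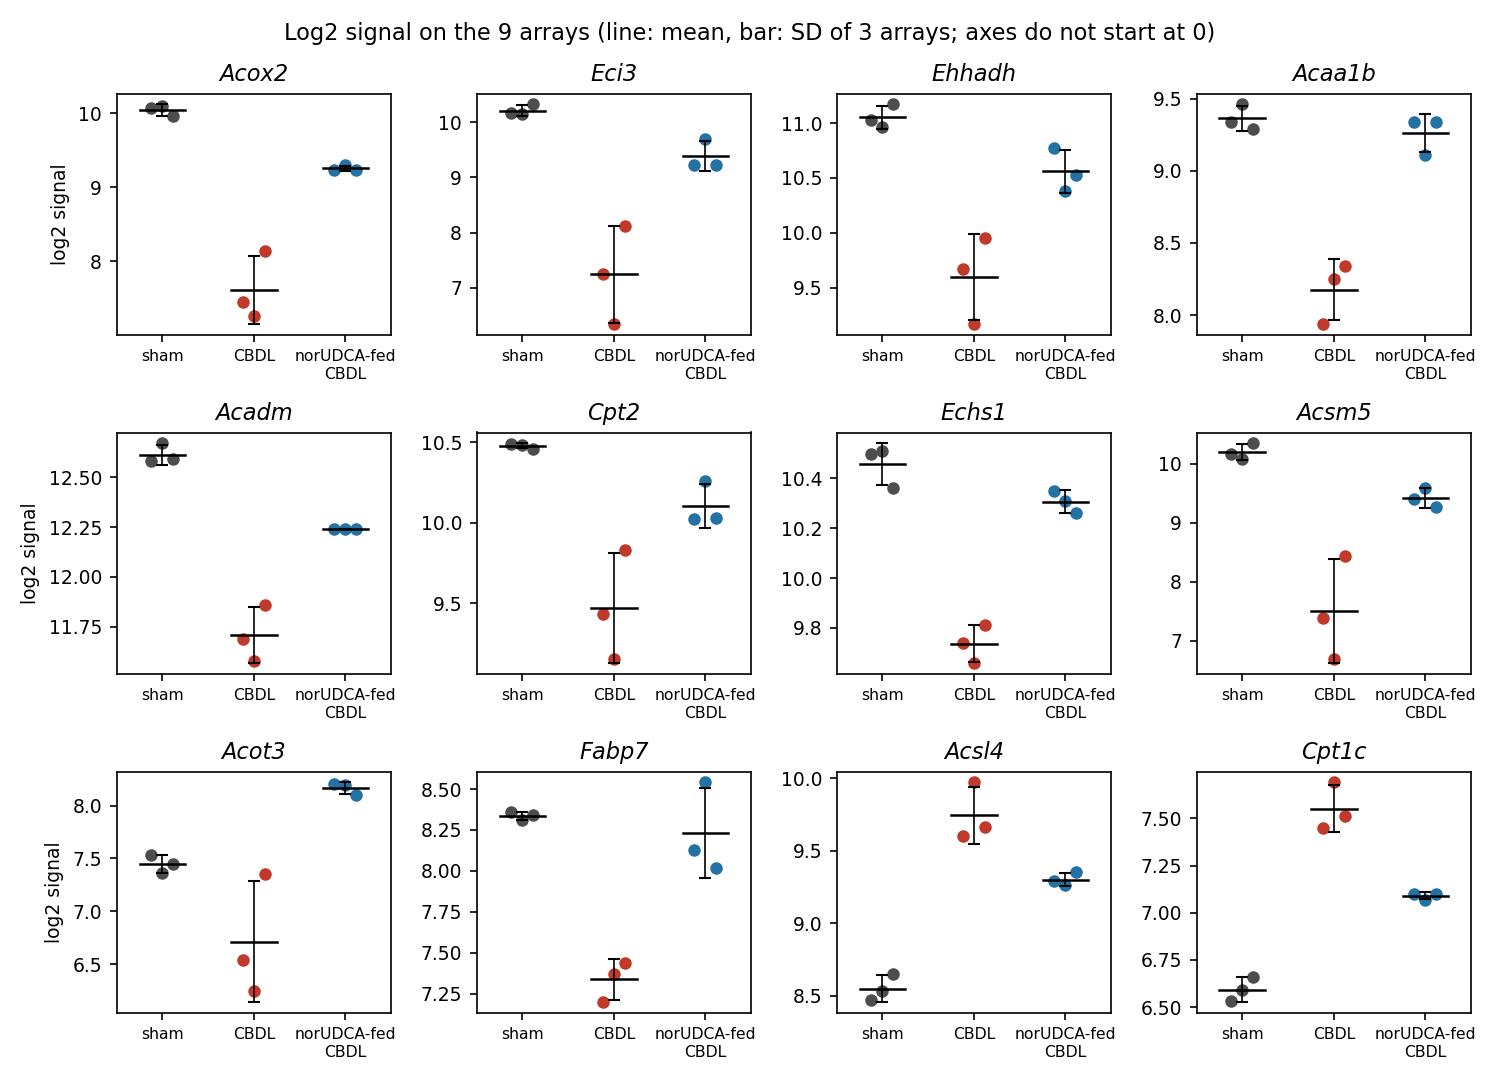
Log2 signal (vertical axis, not starting at 0) of 12 genes on the 3 arrays of each group (horizontal axis), with the mean as a line and the SD as a bar. In Acox2, Eci3, Acadm, Cpt2 and Acsm5 the norUDCA-fed arrays sit between the CBDL and sham arrays, in Acot3 they sit above both, and Acsl4 and Cpt1c are highest in CBDL.

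Every acyl-CoA dehydrogenase gene on the list, grouped by symbol, fell after ligation (10 of 10, median -0.96), and 4 rose in norUDCA-fed CBDL against CBDL. Acadm, the medium-chain dehydrogenase, read 12.58, 12.67 and 12.59 in sham, 11.69, 11.58 and 11.86 in CBDL and 12.24 on each norUDCA-fed array. Groups did not overlap, and the 3 norUDCA-fed values were equal to the last deposited digit. The changes were -0.90 (SE 0.10, adjusted p = 0.000185) and 0.53 (SE 0.10, adjusted p = 0.015). Acads, the short-chain enzyme, changed by -1.14 (SE 0.11, adjusted p = 0.000126) and 0.44 (SE 0.11, adjusted p = 0.0492), and remained 0.70 below sham (difference -0.70, adjusted p = 0.0123).

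After ligation Acadvl and Acadl had smaller differences than Acadm and Acads. So did Acadsb (-0.44), while Acad9 had the largest of the dehydrogenases (-1.33). Acadvl, for very long chains, changed by -0.65 after ligation (SE 0.15, adjusted p = 0.011), and its difference of 0.44 in norUDCA-fed CBDL against CBDL did not pass (adjusted p = 0.121). Acadl, for long chains, changed by -0.41 (SE 0.11, adjusted p = 0.0203), its difference against CBDL of 0.25 did not pass (adjusted p = 0.246), and its call after ligation was lost without sham_159, sham_160, CBDL_164 or CBDL_165 (adjusted p up to 0.0737). Differences between these enzymes and the shorter-chain ones were not tested.

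Acad9, which also helps assemble respiratory complex I, had the largest fall of the dehydrogenases, with means of 9.13 ± 0.25 (sham) and 7.81 ± 0.31 (CBDL; SD over 3 arrays). This was a change of -1.33 (SE 0.17, adjusted p = 0.000439). Acad10 and Acad11, which act on hydroxylated chains, changed by -1.19 and -1.13 after ligation (adjusted p = 0.00421 and 0.00118) and by 0.93 and 0.95 in norUDCA-fed CBDL against CBDL (adjusted p = 0.0392 and 0.0144). Acad8, the enzyme of the valine pathway, changed by -1.02 (SE 0.14, adjusted p = 0.000615). Its norUDCA-fed arrays of 8.96, 9.09 and 9.19 lay below the sham arrays of 9.42, 9.97 and 9.69 and above the CBDL arrays of 8.69, 8.63 and 8.70. Acad12 and Acadsb changed by -0.52 and -0.44 after ligation, and the call of Acad12 was lost without any 1 of 5 arrays (sham_158, sham_159, sham_160, CBDL_164 and CBDL_165, adjusted p up to 0.124).

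The electron transfer flavoprotein takes the electrons of these dehydrogenases. All 3 of its genes fell, with differences for Etfa of -0.91 (SE 0.11, adjusted p = 0.000377), for Etfb of -0.81 (SE 0.18, adjusted p = 0.00896) and for Etfdh, which passes electrons to the respiratory chain, of -0.66 (SE 0.12, adjusted p = 0.00329). In norUDCA-fed CBDL against CBDL, Etfa changed by 0.59 (adjusted p = 0.016) and Etfdh by 0.54 (adjusted p = 0.0279), while the difference of Etfb, 0.60, did not pass (SE 0.18, adjusted p = 0.081). The norUDCA-fed arrays of all 3 genes lay wholly above the CBDL arrays and none of the 3 was called against sham.

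The later mitochondrial steps were split. Echs1, the short-chain hydratase, read 10.50, 10.51 and 10.36 in sham, 9.74, 9.66 and 9.81 in CBDL and 10.35, 10.31 and 10.26 in norUDCA-fed CBDL. Its norUDCA-fed arrays lay just under the sham arrays, and its changes were -0.72 (SE 0.09, adjusted p = 0.000459) and 0.57 (SE 0.09, adjusted p = 0.0103). Hadh, the hydroxyacyl-CoA dehydrogenase, changed by -0.68 and 0.50 (adjusted p = 0.00132 and 0.0239). Acaa2, the mitochondrial thiolase, changed by -0.72 and 0.86 (adjusted p = 0.0101 and 0.016), and its norUDCA-fed mean of 9.98 ± 0.28 was level with the sham mean of 9.84 ± 0.13 (SD, n = 3 each; adjusted p = 0.72).

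Decr1, the reductase for unsaturated chains, changed by -0.76 after ligation (SE 0.16, adjusted p = 0.00739). The trifunctional protein, which carries 3 of the steps for long chains, showed no call in any comparison. After ligation the difference of Hadha, its alpha subunit, was -0.27 (SE 0.11, adjusted p = 0.108) and that of Hadhb, its beta subunit, 0.24 (SE 0.13, adjusted p = 0.224). The CBDL arrays of Hadha lay wholly below those of both other groups, while the groups overlapped in Hadhb. Eci1, an isomerase, had a difference of -0.42 (SE 0.17, adjusted p = 0.108). With array medians subtracted, Hadha and Eci1 were called lower, and Eci1 was also called without CBDL_170 (adjusted p = 0.0228). Echdc2 and Echdc3, with enoyl-CoA hydratase domains, changed by -0.89 and -0.58 (adjusted p = 0.00132 and 0.00848) and were not called in norUDCA-fed CBDL against CBDL.

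In the carnitine shuttle, 2 of the 3 measured genes fell and 1 rose. Cpt2, the inner-membrane transferase, read 10.49, 10.48 and 10.46 in sham, 9.43, 9.15 and 9.83 in CBDL and 10.02, 10.26 and 10.03 in norUDCA-fed CBDL. The groups did not overlap, and the changes were -1.0 (SE 0.16, adjusted p = 0.00143) and 0.63 (SE 0.16, adjusted p = 0.043). Cpt1a, the outer-membrane enzyme that sets the entry of long chains into mitochondria, changed by -0.36 (SE 0.11, adjusted p = 0.0421). That call was lost without sham_159, sham_160, CBDL_164, CBDL_165 or norUDCA_CBDL_172 (adjusted p up to 0.123), and after quantile normalization the difference was -0.09 (adjusted p = 0.541).

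Cpt1c, a brain isoform with little transferase activity, went the other way. It read 6.53, 6.59 and 6.66 in sham, 7.45, 7.69 and 7.51 in CBDL and 7.10, 7.07 and 7.10 in norUDCA-fed CBDL, with no overlap between groups. It rose by 0.96 after ligation (SE 0.10, adjusted p = 0.00013) and was the 1 member that fell in norUDCA-fed CBDL against CBDL, by 0.46 (difference -0.46, SE 0.10, adjusted p = 0.0234). It was still 0.50 above sham (adjusted p = 0.0246).

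Genes with synthetase names moved in both directions. Of these 16, 7 fell and 3 rose after ligation, and 6 rose in norUDCA-fed CBDL against CBDL. The 16 and the 7 include Acss2os, the transcript opposite Acss2, which is no synthetase gene. The Acsm genes encode medium-chain synthetases of the mitochondrial matrix. Acsm5 read 10.16, 10.08 and 10.34 in sham, 7.38, 6.70 and 8.44 in CBDL and 9.40, 9.59 and 9.26 in norUDCA-fed CBDL. Acsm1 read 9.89, 9.55 and 9.90, then 6.6, 7.02 and 7.38, then 8.04, 9.09 and 8.08 in the same order. Neither gene had overlapping groups. Acsm5 changed by -2.69 (SE 0.34, adjusted p = 0.000474) and 1.91 (SE 0.34, adjusted p = 0.014), and Acsm1 by -2.78 (SE 0.29, adjusted p = 0.000145) and 1.40 (SE 0.29, adjusted p = 0.0206). Acsm1 was lower than sham (difference -1.38, adjusted p = 0.0339), the largest such difference of the 86 genes. Acsm2, known as a gene of the proximal tubule, went from 12.91 ± 0.08 to 10.97 ± 0.71 and 12.26 ± 0.16 (SD, n = 3 each), which gives changes of -1.94 (SE 0.28, adjusted p = 0.000931) and 1.28 (SE 0.28, adjusted p = 0.0269).

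Acss2, which activates acetate outside mitochondria, changed by -1.93 (SE 0.22, adjusted p = 0.000295) and 1.09 (SE 0.22, adjusted p = 0.0211). Acss1, which does so inside them, changed by -0.51 (SE 0.11, adjusted p = 0.00859) and 0.56 (SE 0.11, adjusted p = 0.0185). Its norUDCA-fed arrays of 11.63, 11.65 and 11.65 overlapped the sham arrays of 11.55, 11.68 and 11.55. After quantile normalization the difference of Acss1 after ligation was -0.27 (adjusted p = 0.081). Acsf3, the malonyl-CoA synthetase of mitochondria, changed by -1.0 (SE 0.11, adjusted p = 0.000193), by 0.47 against CBDL (adjusted p = 0.0331) and by -0.53 against sham (adjusted p = 0.0315).

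The members that rose after ligation were Acsl4, Acsbg1, Acss3, Acot9 and Cpt1c. Acsl4, a synthetase that prefers arachidonic acid and makes membranes open to lipid peroxidation, read 8.47, 8.53 and 8.65 in sham, 9.60, 9.97 and 9.66 in CBDL and 9.29, 9.26 and 9.35 in norUDCA-fed CBDL. The groups did not overlap and the norUDCA-fed arrays lay between the others. Acsl4 rose by 1.19 after ligation (SE 0.12, adjusted p = 0.000112), had a difference of -0.44 in norUDCA-fed CBDL against CBDL that did not pass (SE 0.12, adjusted p = 0.0518) and was 0.75 above sham (SE 0.12, adjusted p = 0.0098). Acsbg1, a long-chain synthetase of the bubblegum type, changed by 0.93 after ligation (SE 0.11, adjusted p = 0.000314) and by 0.59 in norUDCA-fed CBDL against sham (adjusted p = 0.0217), with a difference of -0.34 against CBDL (adjusted p = 0.107). Acss3 and Acot9 changed by 0.49 and 0.62 after ligation (adjusted p = 0.0196 and 0.0294). The call of Acss3 was lost without sham_158, sham_160 or CBDL_170 (adjusted p up to 0.071), and that of Acot9 without sham_158, sham_159 or CBDL_165 (adjusted p up to 0.101).

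Thioesterases, which free the fatty acid from coenzyme A, had 5 of 12 genes lower and 1 higher after ligation, and 4 higher in norUDCA-fed CBDL against CBDL. Acot12, an acetyl-CoA thioesterase, read 11.08, 11.26 and 11.39 in sham, 9.23, 9.08 and 9.93 in CBDL and 10.77, 10.55 and 10.50 in norUDCA-fed CBDL. Its groups did not overlap, and the changes were -1.83 (SE 0.20, adjusted p = 0.000208) and 1.19 (SE 0.20, adjusted p = 0.0118). Acot11 changed by -0.90 and 0.65 (adjusted p = 0.00123 and 0.0227), and Acot13, a mitochondrial thioesterase, by -0.68 and 0.60 (adjusted p = 0.00226 and 0.0174).

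Acot3, a thioesterase of peroxisomes, was the 1 called gene whose norUDCA-fed arrays all lay above the sham arrays after a fall. It read 7.53, 7.36 and 7.45 in sham, 6.54, 6.25 and 7.35 in CBDL and 8.20, 8.19 and 8.10 in norUDCA-fed CBDL. CBDL_170 lay 0.01 below the lowest sham array, and the other 2 CBDL arrays lay far lower. The change was -0.73 after ligation (SE 0.23, adjusted p = 0.0463), a call lost in 8 of the 9 fits with 1 array left out (the exception is the fit without CBDL_170, adjusted p up to 0.141). It was 1.45 in norUDCA-fed CBDL against CBDL (SE 0.23, adjusted p = 0.01), which held in all 9. The difference of 0.72 against sham did not pass (SE 0.23, adjusted p = 0.15).

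Acot3 sits in a row of 6 related genes, in the order Acot2, Acot1, Acot4, Acot3, Acot5 and Acot6 in the RefSeq annotation of GRCm38.p6. Of these, Acot3 and Acot6 fell after ligation and Acot3 rose against CBDL. Acot1 and Acot2, the cytosolic and mitochondrial forms, had differences of -0.56 and -0.38 after ligation (adjusted p = 0.153 and 0.14), and Acot2 was called lower without CBDL_170 (adjusted p = 0.00527). The row used for Acot4 had a difference of -0.33 (adjusted p = 0.191), and a second, dimmer Acot4 row one of -1.18, with sham arrays of 7.04, 7.38 and 7.38 and CBDL arrays of 5.93, 6.14 and 6.20. When the rows of a gene were averaged Acot4 was called lower. Its 2 rows thus disagree in size, and whether probes of this family read more than 1 gene was not tested.

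Neighbours of other families also had unequal values. Eci3 and Eci2 lie side by side and had differences of -2.97 and -0.30 after ligation. Acsm5, Acsm2 and Acsm1 fell together, while Acsm4, next in the row, lay between 3.65 and 4.09 on all arrays, in the dimmest 33.3% of genes. Acad12 and Acad10 had differences of -0.52 and -1.19 after ligation, and of 0.04 and 0.93 in norUDCA-fed CBDL against CBDL. The differences between neighbours were not tested.

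**Figure D3:**
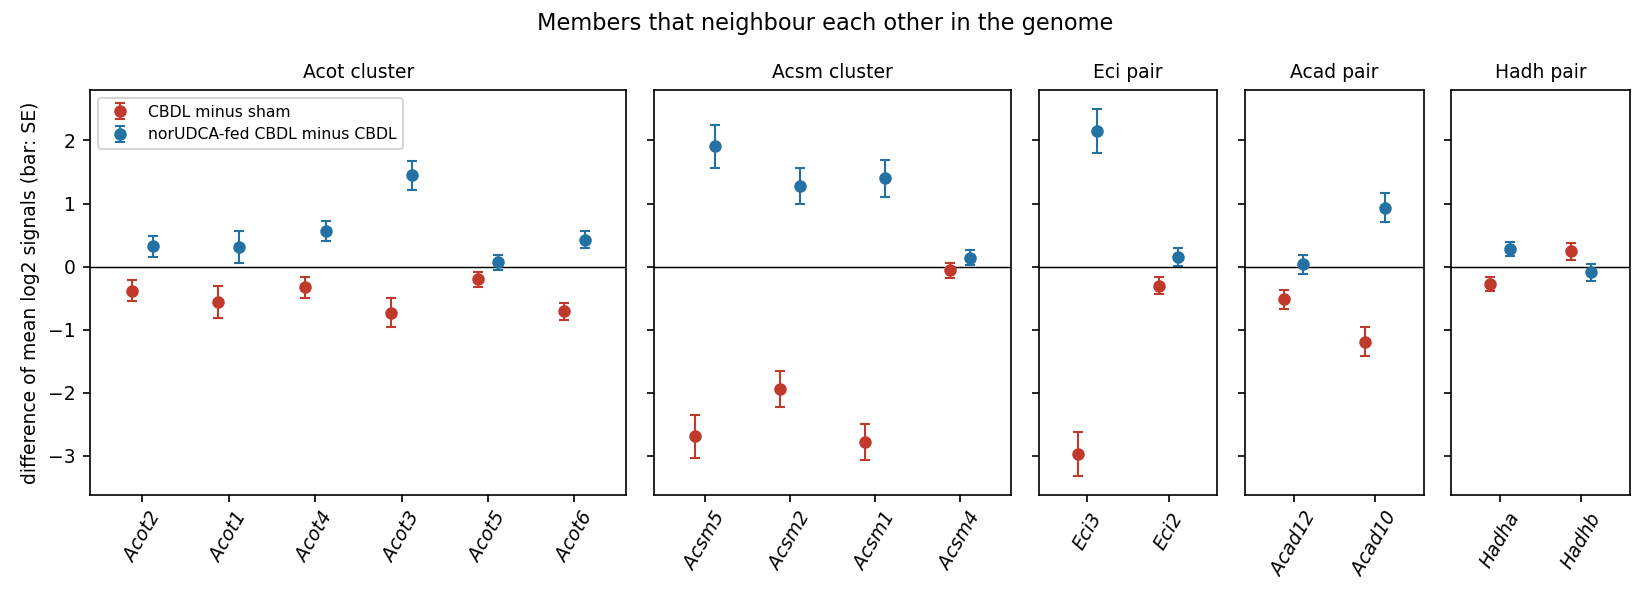
Difference of mean log2 signals (vertical axis, bars are the SE) for members that lie next to each other in the RefSeq annotation, in their order along the chromosome, for CBDL minus sham (red) and norUDCA-fed CBDL minus CBDL (blue). Eci3 stands far from its neighbour Eci2, and 3 of the 4 Acsm genes fell by 1.94 or more while Acsm4 stayed near 0.

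Peroxins had small differences of the same sign. All 14 measured Pex genes had a negative difference after ligation (between -0.73 and -0.23, median -0.50) and 9 fell, while in norUDCA-fed CBDL against CBDL all 14 differences were positive (between 0.15 and 0.53, median 0.27) and 1 rose. Pex7, the import receptor for enzymes with an amino-terminal signal, thiolase among them, read 8.30, 8.36 and 8.40 in sham, 7.67, 7.71 and 7.49 in CBDL and 8.09, 8.30 and 8.05 in norUDCA-fed CBDL. The CBDL arrays lay below all others, and 1 norUDCA-fed array equalled the lowest sham array. Pex7 changed by -0.73 (SE 0.11, adjusted p = 0.000915) and 0.53 (SE 0.11, adjusted p = 0.0194). Pex6, part of the motor that recycles import receptors, changed by -0.70 (adjusted p = 0.00263), Pex11a, which acts in the division of peroxisomes, by -0.68 (adjusted p = 0.00266) and Pex5, the receptor for the carboxy-terminal signal, by -0.58 (adjusted p = 0.00933).

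Pex3 and Pex16, which place membrane proteins in the organelle, both changed by -0.54 (adjusted p = 0.006 and 0.0158). Pex11g, Pex13 and Pex14 changed by -0.55, -0.45 and -0.42, the last 2 being the docking site for import receptors. Their calls were lost without 1 of at least 5 different arrays each (adjusted p up to 0.101, 0.129 and 0.136). Those arrays were all sham and CBDL arrays but sham_159 for Pex11g, while for Pex14 they included all 3 norUDCA-fed arrays and for Pex13 norUDCA_CBDL_172 and norUDCA_CBDL_179. Pex2, Pex10, Pex19, Pex26 and Pex5l did not pass.

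Fatty acid binding proteins carry fatty acids through the cytosol, and 1 of the 7 measured genes was called. Fabp7, the brain type, read 8.36, 8.31 and 8.34 in sham, 7.2, 7.37 and 7.44 in CBDL and 8.13, 8.54 and 8.02 in norUDCA-fed CBDL. The CBDL arrays lay below all others, and the norUDCA-fed arrays lay on both sides of the sham arrays. Its changes were -1.0 (SE 0.14, adjusted p = 0.00073) and 0.89 (SE 0.14, adjusted p = 0.00976). Fabp3, the heart type, lay between 8.77 and 9.46 on the 9 arrays and had a difference of -0.04 after ligation (SE 0.17, adjusted p = 0.906). Fabp5, the epidermal type, held the same value of 6.25 on 7 of the 9 arrays, and 3 dimmer Fabp5 rows had differences of -0.11, 0.39 and 0.56. Fabp1, the liver type, Fabp2, Fabp9 and Fabp12 lay in the dimmest 33.3% of genes, with Fabp1 between 3.21 and 4.35.

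Low signal was found in 9 of the 86 genes (Acsbg2, Acsbg3, Acsm4, Acot5, Fabp1, Fabp2, Fabp9, Fabp12 and Acoxl), and none of them was called in any comparison. Exactly equal values on at least 2 arrays occurred in 26 members (30.2%) and in 46.6% of all genes, and their source was not tested. Of the genes matched by spelling alone, Acss2os and Etfrf1 fell (differences of -0.80 and -0.59) and Etf1 and Etfbkmt did not pass. Without these 4 genes, 49 fell and 5 rose after ligation, and 27 rose and 1 fell in norUDCA-fed CBDL against CBDL.

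Among the 51 genes that fell, CBDL_170 was the highest of the 3 CBDL arrays for 42. The lowest was CBDL_165 for 28, CBDL_164 for 20 and CBDL_170 for 3. Over all 86 genes the mean level was 8.44 to 8.55 on the sham arrays, 7.84, 7.80 and 8.06 on CBDL_164, CBDL_165 and CBDL_170, and 8.29 to 8.31 on the norUDCA-fed arrays. Markers of the proximal tubule moved with them: 17 of 18 fell after ligation and 12 rose in norUDCA-fed CBDL against CBDL, and their mean level was 11.89 to 11.97 in sham, 10.40, 9.81 and 10.94 on the CBDL arrays in the same order, and 11.41 to 11.54 in norUDCA-fed CBDL. Thick limb and distal tubule markers had 4 of 7 genes lower after ligation (Egf, Pvalb, Klhl3 and Slc12a3) and 2 higher in norUDCA-fed CBDL against CBDL (Klhl3 and Slc12a3). Their mean level was 10.74 to 10.83 in sham, 10.31, 9.76 and 10.22 on the CBDL arrays and 10.66 to 10.84 in norUDCA-fed CBDL. Macrophage and myeloid markers moved the other way, with 15 of 15 higher after ligation, 13 of 15 lower in norUDCA-fed CBDL against CBDL, and a mean level of 6.89 to 7.25 in sham, 8.64 to 9.39 in CBDL and 8.0 to 8.06 in norUDCA-fed CBDL. In bulk kidney RNA, fewer cells of a type and less RNA per cell cannot be told apart, and the part of these markers in the members' differences was not tested. Adipose markers had 3 of 9 genes higher after ligation (Adipoq, Cidec and Retn). Their mean levels were 5.74 to 6.59 in sham, 6.69 to 8.01 in CBDL and 5.89 to 7.24 in norUDCA-fed CBDL. Liver markers had 3 of 8 genes lower after ligation (Alb, Apob and Ttr) and the same 3 higher in norUDCA-fed CBDL against CBDL. None of 7 muscle markers was called in any comparison. The part of these 3 lists was not tested either.

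**Figure D4:**
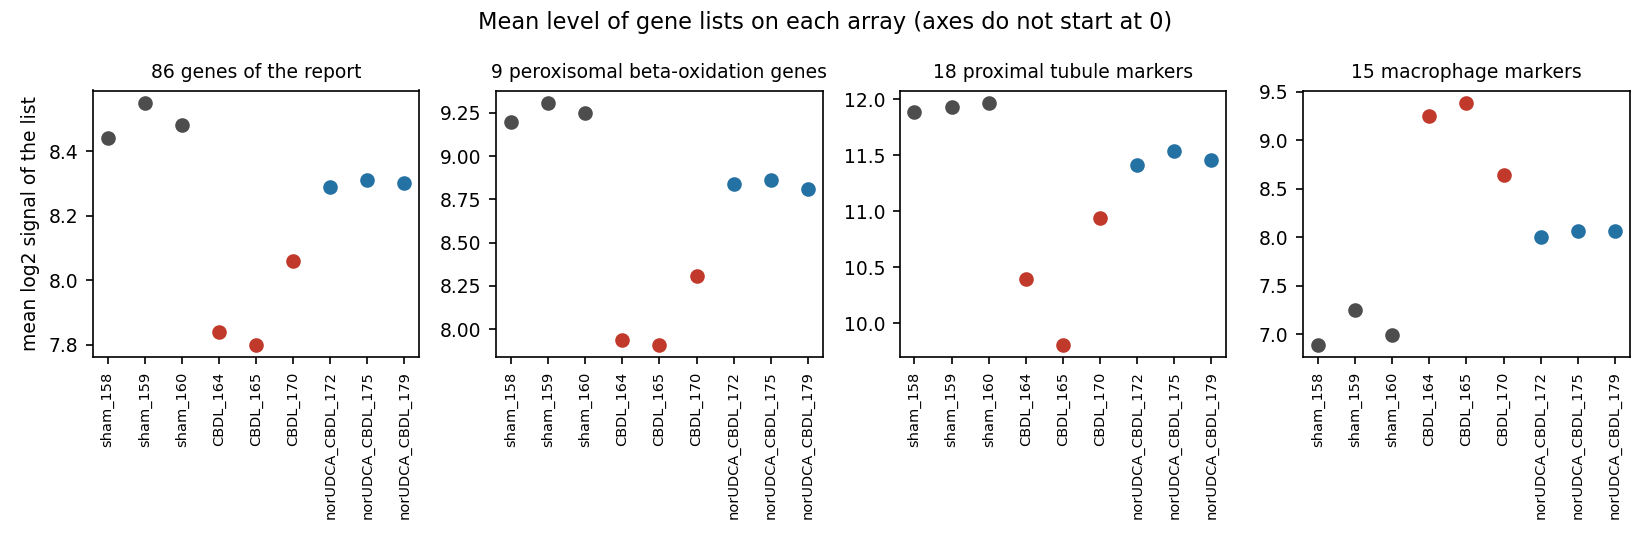
Mean log2 signal (vertical axis, not starting at 0) on each of the 9 arrays (horizontal axis) of the 86 genes, of the 9 peroxisomal beta-oxidation genes, of 18 proximal tubule markers and of 15 macrophage markers. In the first 3 panels the CBDL arrays are lowest with CBDL_170 the highest of them, and in the macrophage panel the CBDL arrays are highest with CBDL_170 the lowest of them.

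Regulators of these pathways were read from a list of 14 genes, of which 7 fell and 1 rose after ligation, and 4 rose and 1 fell in norUDCA-fed CBDL against CBDL. Ppara, the nuclear receptor that drives many oxidation genes in liver and kidney, read 8.37, 8.37 and 8.22 in sham, 7.44, 7.91 and 8.13 in CBDL and 8.48, 8.22 and 8.66 in norUDCA-fed CBDL. Its CBDL arrays lay below all others, and it did not pass in either comparison (-0.50, SE 0.18, adjusted p = 0.0746, and 0.63, SE 0.18, adjusted p = 0.0671), though without CBDL_170 it was called lower after ligation (adjusted p = 0.0282). Rxra, its partner in binding DNA, changed by -0.64 (SE 0.10, adjusted p = 0.00112), and Hnf4a, a factor of the proximal tubule that binds similar sites, by -0.68 and 0.54 (adjusted p = 0.00144 and 0.0194). Ppargc1b, a coactivator, changed by -0.73 (adjusted p = 0.000833), Sirt3, a mitochondrial deacetylase, by -1.01 (adjusted p = 0.00125), and Esrrg, an orphan receptor, by -0.42 and 0.55 (adjusted p = 0.0426 and 0.0333), its call after ligation being lost without any 1 of 8 arrays (all but CBDL_170, adjusted p up to 0.14). Pparg, the receptor of fat cells, changed by 1.24 and -1.16 (adjusted p = 0.00625 and 0.0268). The calls of Hnf4a, Esrrg and Pparg against CBDL were each lost in at least 5 of the 9 fits with 1 array left out, those without CBDL_164, norUDCA_CBDL_172, norUDCA_CBDL_175 and norUDCA_CBDL_179 among them (adjusted p up to 0.078, 0.119 and 0.0961).

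Of 10 measured genes that are known targets of PPARA and no members, 2 rose and 2 fell after ligation, and 2 rose in norUDCA-fed CBDL against CBDL. After ligation 7 of the 10 differences were positive, with a median of 0.19, while the median of the 86 genes was -0.54. Cyp4a14, a fatty acid hydroxylase, read 6.04, 6.24 and 5.68 in sham, 8.77, 8.77 and 8.95 in CBDL and 10.21, 9.53 and 10.41 in norUDCA-fed CBDL, so that it was higher after ligation and higher again in the norUDCA-fed kidneys (2.84 and 1.22, adjusted p = 4.27e-05 and 0.014). Cyp4a31, a relative, changed by -0.82 and 0.93 (adjusted p = 0.0186 and 0.0289), and Vnn1, a pantetheinase, by -1.14 (adjusted p = 0.00599). Against CBDL the call of Cyp4a14 was lost without CBDL_164 or norUDCA_CBDL_172 (adjusted p up to 0.0573) and that of Cyp4a31 without 5 arrays, CBDL_164, CBDL_165 and the 3 norUDCA-fed ones (up to 0.113). The fall of Cyp4a31 was lost without sham_159, CBDL_164 or CBDL_165 (up to 0.0733).

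Uptake of fatty acids and carnitine had 8 of 12 genes lower and 1 higher after ligation, and none called in norUDCA-fed CBDL against CBDL, where 8 of the 12 had an unadjusted p under 0.05 in the same limma fit, as did 4275 of the 22180 genes tested. Crot, the carnitine transferase of peroxisomes, changed by -1.34 (SE 0.14, adjusted p = 0.000154), Tmlhe, the entry enzyme of carnitine synthesis, by -1.03 (adjusted p = 0.000829) and Slc22a5, the carnitine transporter, by -0.90 (adjusted p = 0.00189). Crot and Tmlhe were still lower than sham in norUDCA-fed CBDL (-0.95 and -0.64, adjusted p = 0.00853 and 0.0484), a call that for Tmlhe was lost in 7 of the 9 fits with 1 array left out, all but those without CBDL_164 or CBDL_170 (adjusted p up to 0.199).

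Ketone body and malonyl-CoA genes had 4 of 7 lower after ligation and 3 higher in norUDCA-fed CBDL against CBDL. Bdh1, which interconverts ketone bodies, changed by -1.80 and 0.88 (adjusted p = 5.21e-05 and 0.011), Acat1, a thiolase, by -1.41 and 0.80 (adjusted p = 0.00058 and 0.0341) and Oxct1, which activates acetoacetate, by -1.19 and 0.78 (adjusted p = 0.0007 and 0.0227). Against CBDL, the call of Bdh1 held with any 1 array left out, that of Oxct1 was lost without CBDL_164 or any norUDCA-fed array (adjusted p up to 0.0944), and that of Acat1 without any 1 of 7 arrays, all but sham_159 and CBDL_170 (up to 0.11).

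Peroxisomal enzymes and membrane proteins outside the members had 19 of 23 genes lower and 1 higher after ligation, and 9 higher and 1 lower in norUDCA-fed CBDL against CBDL. Amacr, a racemase that prepares branched chains and bile acid precursors for oxidation, read 11.16, 11.33 and 11.45 in sham, 8.68, 8.07 and 9.33 in CBDL and 10.03, 10.32 and 10.06 in norUDCA-fed CBDL, with no overlap between groups. It changed by -2.62 (SE 0.26, adjusted p = 0.000121), by 1.44 against CBDL (adjusted p = 0.014) and by -1.17 against sham (adjusted p = 0.0424). The last call was lost without any 1 of 7 arrays, all but CBDL_165 and CBDL_170 (adjusted p up to 0.163), and the one against CBDL without CBDL_164 or norUDCA_CBDL_175 (up to 0.0648). Pecr, an enoyl-CoA reductase, changed by -2.05 and 1.51 (adjusted p = 0.000207 and 0.00883), Ephx2, an epoxide hydrolase, by -2.01 and 1.04 (adjusted p = 9.62e-05 and 0.0142), and Phyh, which starts the breakdown of phytanic acid, by -1.07 and 0.68 (adjusted p = 0.000136 and 0.0101). The 1 gene higher after ligation was Abcd2, a transporter of very long chains that is also abundant in fat, which changed by 2.02 and -1.52 (adjusted p = 0.00103 and 0.0181). Against CBDL, the calls of Pecr and Phyh held with any 1 array left out, that of Ephx2 was lost without CBDL_164, norUDCA_CBDL_175 or norUDCA_CBDL_179 (adjusted p up to 0.0648), and that of Abcd2 without CBDL_164 or norUDCA_CBDL_175 (up to 0.0762).

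Since many members moved together, their promoters were searched for a direct repeat of AGGTCA, that is 2 copies in the same direction with any 1 base between them, a form known to be bound by PPARA with RXRA and by HNF4A. RefSeq windows (GRCm38.p6) from 250 bases before to 50 bases after the start were found for 72 of the 86 genes. On both strands, the exact repeat was in none of the 72 and in 0.0481% of 27025 genes, and a looser repeat with AGGNCA for each copy, which includes the exact one, was in Fabp1 alone of the members and in 0.451% of genes. Stretches of 13 bases in the 250 bases before the start that match the repeat in at least 10 of its 12 fixed letters were found in 5 of the 72 members (6.94%) and in 3.72% of genes. These 5 stretches are shown because they are the closest forms of the repeat among the members, each as the 130 bases before the start, 5′ to 3′ on the strand of the gene, with the 13 bases in capitals.

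Acot12 (chr13:91741391-91741520, plus strand, 11 letters match on the opposite strand), which fell after ligation and rose against CBDL:
Acot12: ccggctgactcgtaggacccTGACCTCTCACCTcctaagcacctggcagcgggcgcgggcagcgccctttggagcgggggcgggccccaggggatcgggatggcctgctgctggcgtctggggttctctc
Echs1 (chr7:140116422-140116551, minus strand, 10 letters match on the strand of the gene), which fell and rose likewise:
Echs1: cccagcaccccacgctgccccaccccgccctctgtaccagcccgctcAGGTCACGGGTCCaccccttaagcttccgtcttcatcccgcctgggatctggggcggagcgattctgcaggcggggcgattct
Etfa (chr9:55512244-55512373, minus strand, 10 letters match on the opposite strand), which fell and rose likewise:
Etfa: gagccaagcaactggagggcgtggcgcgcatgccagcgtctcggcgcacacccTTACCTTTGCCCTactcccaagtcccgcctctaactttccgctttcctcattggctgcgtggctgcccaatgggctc
Acot4 (chr12:84038249-84038378, plus strand, 10 letters match on the opposite strand), not called on the row used:
Acot4: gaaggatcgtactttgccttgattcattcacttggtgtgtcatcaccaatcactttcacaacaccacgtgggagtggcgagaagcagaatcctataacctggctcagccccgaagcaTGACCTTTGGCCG
Fabp1 (chr6:71199749-71199878, plus strand, 11 letters match on the opposite strand), near background in these kidneys:
Fabp1: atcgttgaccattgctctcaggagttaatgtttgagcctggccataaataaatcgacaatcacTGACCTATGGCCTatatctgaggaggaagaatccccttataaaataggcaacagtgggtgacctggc

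The 5 genes thus include 3 that fell and rose, 1 that was not called and 1 that was dim, and Acox2, Eci3, Ehhadh, Acaa1b and the Acsm genes with the largest changes were not among them. Such a match is a description of the letters, and its absence says only that they are not in this window.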

How the data were processed

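Per the labels' protocols, kidney RNA was isolated in TRIzol and prepared for the arrays by the WT PLUS method of Affymetrix. The deposited log2 values were made by the authors with RMA in Partek 6.6, per the submitters' processing notes. Array model, genome build and filters: not given in the sources used here. Depth does not apply to arrays, and the number of 3 arrays a group limits the precision (median SE 0.14 for CBDL minus sham).

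Of the deposited rows, 23521 had 1 symbol, 1814 several and 16010 none. The brightest row with 1 symbol stood for each gene, giving 22180 genes. limma 3.58.1 in R 4.3.3 was fitted to all 9 arrays with 1 mean per group and moderated variances. P-values were adjusted over all genes by the Benjamini-Hochberg method. The script was tested on simulated data, and alternatives are described in the closing section. Figures were drawn with matplotlib 3.10.9.

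The members, roles, lists and tests were chosen with earlier results of these data known. Named were up to 4 members with the lowest p per role and comparison, members called with at least 2-fold changes, those called in norUDCA-fed CBDL against CBDL, further members fixed by name, and up to 3 genes per pathway list and comparison. Others named were chosen after their values were seen, as was the motif search that allowed mismatches. Protein sequences and a comparison of family members by sequence were not run.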

Additional observations from a re-analysis of the deposited data

How the results depend on the processing

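No paired analysis was possible because the groups share no replicate number. Beside leaving out each array in turn, 8 other alternatives were planned and 2 were added after seeing the data (without sham_159 and CBDL_165 together, and without Etf1, Etfbkmt, Etfrf1 and Acss2os). Among the genes picked by the naming rule above, no called result changed sign under any of them. Signs of the other called genes were not tracked. The median difference of the 86 genes lay between -0.65 and -0.48 for CBDL minus sham. It lay between 0.29 and 0.38 for norUDCA-fed CBDL minus CBDL, and between -0.24 and -0.15 for norUDCA-fed CBDL minus sham. Subtracting array medians moved the median of all genes from -0.06 to -0.16 after ligation.

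With 1 array left out, CBDL minus sham called 3794 to 4604 genes and 47 to 56 members (43 to 52 lower, 3 to 5 higher). norUDCA-fed CBDL minus CBDL called 278 to 2043 genes and 5 to 39 members (5 to 37 higher, 0 to 2 lower). norUDCA-fed CBDL minus sham called 156 to 822 genes and 1 to 13 members (0 to 4 higher, 0 to 9 lower).

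In CBDL minus sham, 3 members were called higher when only the 6 arrays compared were fitted. In norUDCA-fed CBDL minus CBDL, 2 members were lower with an intensity trend, with array weights, without the dimmest 33.3% of genes and after quantile normalization. Without moderated variances 25 genes and 1 member (1 higher, 0 lower) were called, with only the 6 arrays compared 912 genes and 18 members (17 higher), and without sham_159 and CBDL_165 749 genes and 14 members (14 higher, 0 lower). In norUDCA-fed CBDL minus sham, 8 members were lower with an intensity trend, 9 without those dimmest genes and 9 with array medians subtracted. Array weights called 1638 genes and 15 members (12 lower), variances without moderation 169 genes and 1 member (1 higher, 0 lower), only the 6 arrays compared 15 members (11 lower), and the fit without sham_159 and CBDL_165 5 members (2 lower). The causes of these moves were not tested, beyond the fewer arrays or degrees of freedom that some of them have by construction. Signals in the dimmest 33.3% cannot be told from background with these files.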
